A study of Mus musculus with 3 samples.

Results

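Mast cells were described in the back skin of C57BL/6 mice at 3 ages, neonatal, 3 weeks and 2 months, each with 1 library of single-cell RNA sequencing. A barcode was kept with 300 or more detected genes, 500 or more unique molecular identifiers (UMIs, each counting 1 captured transcript) and at most 10% mitochondrial UMIs. A kept barcode was counted as a mast cell where at least 3 of the 7 genes Cpa3, Cma1, Mcpt4, Tpsb2, Kit, Ms4a2 and Fcer1a had a UMI and the 7 together had 10 or more UMIs. The rule took 201 of 26143 kept barcodes. They were 112 of 7911 neonatal barcodes, 72 of 8900 at 3 weeks and 17 of 9332 at 2 months.

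Dorsal skin was cut up and dissociated with 2 enzymes, collagenase D and DNase1, and transcripts were captured in droplets at their 3′ ends and sequenced on a NovaSeq6000. The animals carried no transgene, allele or treatment named in the labels, which give neither the number nor the sex of the animals behind a library. The series as a whole concerns IL1 and WNT pathways in dermal adipocyte lineage cells, and its purpose for mast cells is not stated. With 1 library per age there was no replicate error and no test between ages. Each interval given is an exact 95% interval that covers counting error only: Clopper-Pearson for a share of cells, Poisson for a level and the conditional binomial interval for a ratio.

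Mast cells are long-lived tissue cells of the blood lineage whose survival depends on the receptor tyrosine kinase KIT. They store proteases, histamine and serotonin on a heparin matrix in granules, and release them when IgE bound to the high-affinity receptor is crosslinked or when other receptors, such as those for basic peptides, are engaged. Mast cells of connective tissue, which includes the dermis, are known for chymases, tryptases and carboxypeptidase A3, and GATA factors take part in the regulation of several of these genes.

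The motif of the GATA factors was searched in the promoters of the rule genes that had one annotated. The promoters of 3 of the genes with a match are shown, and windows without a match are not. Promoter sequence came from RefSeq (GRCm38.p6), as the 250 bases before the annotated start on the gene's strand, and capitals mark AGATAA or TGATAA on either strand (TTATCT and TTATCA on the other). The Cpa3 window is chr3:20242182-20242431 on the minus strand, the Mcpt4 window chr14:56062311-56062560 on the minus strand and the Ms4a2 window chr19:11623720-11623969 on the minus strand.
Cpa3: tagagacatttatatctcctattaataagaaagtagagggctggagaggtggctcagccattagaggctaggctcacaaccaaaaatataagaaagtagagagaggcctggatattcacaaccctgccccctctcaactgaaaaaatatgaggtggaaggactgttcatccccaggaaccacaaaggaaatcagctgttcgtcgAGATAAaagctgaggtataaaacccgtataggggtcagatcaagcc
Mcpt4: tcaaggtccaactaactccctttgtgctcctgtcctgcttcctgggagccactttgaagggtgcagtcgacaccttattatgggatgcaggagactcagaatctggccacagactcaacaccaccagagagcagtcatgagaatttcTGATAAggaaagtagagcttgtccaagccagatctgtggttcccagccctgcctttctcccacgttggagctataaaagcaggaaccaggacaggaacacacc
Ms4a2: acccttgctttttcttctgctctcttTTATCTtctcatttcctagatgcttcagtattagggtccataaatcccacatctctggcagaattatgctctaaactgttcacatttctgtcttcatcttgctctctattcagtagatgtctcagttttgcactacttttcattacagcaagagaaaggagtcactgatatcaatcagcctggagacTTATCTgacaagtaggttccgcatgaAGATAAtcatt
The Cpa3 window held 1 match, 46 bases before the start, and the Mcpt4 window held 1, 103 bases before it. The Ms4a2 window held 3, at 224, 37 and 11 bases before the start. Of the 7 rule genes 6 had a RefSeq promoter in the table, with 7 windows, and 4 windows (57.1%) held a match, the fourth being that of Fcer1a. Among all 32851 windows of the same length 5452 held one (16.6%). A match is a description of these letters and does not show that a factor is bound there.

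Mast cells made up 1.42% of neonatal barcodes, with an interval of 1.17 to 1.70%. Their share was 0.809% in the 3 week library (interval 0.634 to 1.02%) and 0.182% in the 2 month library (interval 0.106 to 0.292%). The neonatal share was the highest and the 2 month share the lowest, and the intervals did not overlap. Part of this count hung on the mitochondrial limit: 34 further neonatal barcodes met the gene rule with more than 10% mitochondrial UMIs, and at 3 weeks 30 failed a filter, 22 of them this limit. With a limit of 5% the shares were 0.706%, 0.208% and 0.146%. A share of barcodes also depends on how many cells of other types the digestion released, which was not measured.

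The mast cells of the 3 libraries differed in depth. A neonatal mast cell held a median of 5178 UMIs (838 to 25731), one at 3 weeks 810.5 (515 to 15785) and one at 2 months 1346 (548 to 7429). The median kept barcode of the same libraries held 8685, 11142 and 8529.5 UMIs, so the mast cells were shallower than other cells in every library, and most so at 3 weeks. Summed over cells, this left 819044 UMIs in the neonatal profile, 130912 at 3 weeks and 39307 at 2 months. The deepest cell held 3.14%, 12.1% and 18.9% of those sums. Of the UMIs of these deepest cells, 0.0155%, 13.0% and 21.7% came from fibroblast markers, which are described below. Levels from the summed profiles include these cells unless stated. A lower capture of transcripts and less RNA in a cell cannot be told apart. Of the kept barcodes 57, 54 and 49 occurred in another library too, among them 1 neonatal mast cell and no pair of mast cells.

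**Figure D1:**
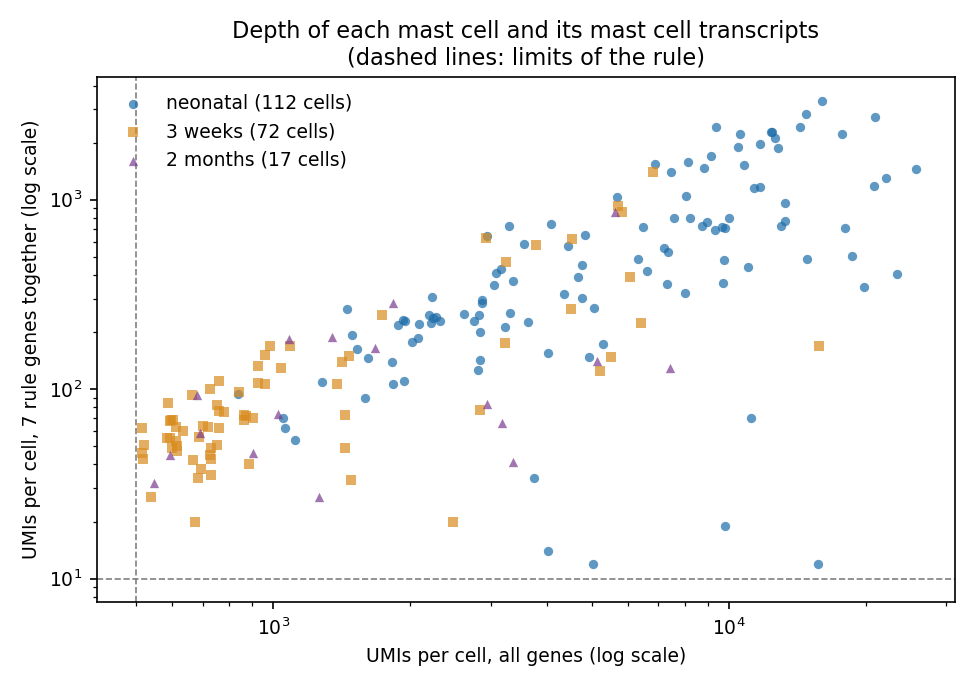
Each point is 1 mast cell, with its UMIs of all genes on the x axis and its UMIs of the 7 rule genes on the y axis, both on log scales; dashed lines mark the limits of 500 and 10 UMIs. The 3 week and 2 month cells crowd at the left, with medians of 810.5 and 1346 UMIs, and the neonatal cells reach 25731.

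The 7 genes took 9.57% of all mast cell UMIs in the neonatal library, 8.66% at 3 weeks and 6.40% at 2 months. Cell by cell their share differed less, with medians of 8.86%, 8.84% and 7.23%. These genes chose the cells, so their height against other cells is a description. At the edge of the rule, the fewest UMIs of the 7 genes in a mast cell were 12, 20 and 27 in the 3 libraries in order of age, and the most in a kept barcode outside it were 17, 24 and 7. Barcodes with 3 or more of the genes but under 10 UMIs numbered 21, 3 and 1, and those with 10 or more UMIs but under 3 genes numbered 2, 4 and 0. In single cells the share of the 7 genes ran from 0.0765 to 25.8%, from 0.805 to 21.5% and from 1.22 to 17.0%. The rule thus also took cells with few of these transcripts. In 1 neonatal cell 12 of 15694 UMIs came from the 7 genes and 10.4% from fibroblast markers, and its type is uncertain.

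Each mast cell holds markers of its type by the rule, so the markers of other blood cells are given here. The 4 basophil markers summed to 416, 420.1 and 382 CPM, against 0.510, 0.943 and 1.30 CPM in other cells, and most of their UMIs (240 of 341, 32 of 55 and 13 of 15) came from Cd200r3, an activating receptor that is also known in mast cells. Of the other basophil markers, Mcpt8 had 3 UMIs in the neonatal cells and 0 at the later ages, and Itga2 had 7, 1 and 0. Prss34, a protease also counted as a basophil marker, was found in 9 of 112, 2 of 72 and 1 of 17 cells. The 4 T cell markers measured (Cd3d, Cd3e, Cd3g and Cd2) had 0 UMIs in all 3 libraries. Macrophage markers summed to 269, 45.8 and 50.9 CPM (UMIs scaled to 1e+06 in the summed profile), against 214, 165 and 167 CPM in other cells, and 80.0% of the neonatal sum lay in 1 cell. MHC class II genes, which present antigen, summed to 17.1, 15.3 and 0 CPM, against 142, 1166 and 1481 CPM in all other cells.

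Transcripts of structural skin cells were found in the mast cells, and their level differed between libraries. The 8 fibroblast markers, among them the collagens Col1a1 and Col3a1, summed to 9183 CPM in neonatal mast cells, 29608 CPM at 3 weeks and 85964 CPM at 2 months, against 45889.9, 143873 and 131343 CPM in other cells. One cell held 21.7%, 52.8% and 47.7% of those UMIs. Keratinocyte markers summed to 369.9, 1321 and 3689 CPM. Haemoglobin transcripts summed to 310.1, 21992 and 25.4 CPM, and 1 cell held 91.0% of them at 3 weeks. A median of 0.0624%, 0.417% and 0.440% of a mast cell's UMIs came from markers of other types, and 8, 7 and 3 cells had 5% or more. Scrublet called 15, 1 and 0 of the mast cells as doublets, by rules that differed between libraries. Its own threshold called 2.37% of kept barcodes at 3 weeks and 3.73% at 2 months. In the neonatal library that threshold called 0.0253%, so the highest scores at the expected rate were called instead, 5.54%. The 3 counts therefore cannot be compared. The counts of the cytokine, receptor and immediate early lists are also given without called doublets and without cells with 5% or more of other types' markers.

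**Figure D2:**
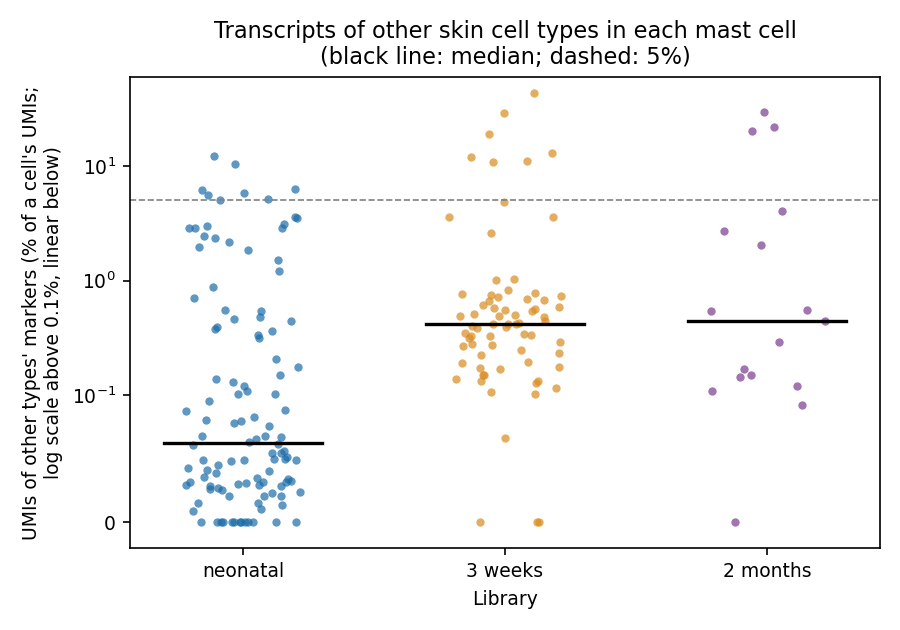
Each point is 1 mast cell and the y axis is the percent of its UMIs that came from markers of other skin cell types, on a scale that is linear below 0.1% and logarithmic above; black lines are medians and the dashed line is 5%. Medians stand at 0.0624% in the neonatal library, 0.417% at 3 weeks and 0.440% at 2 months, and 1 cell of the 3 week library reaches 43.3%.

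The granule protease genes summed to 97266 CPM in neonatal mast cells, 87861 CPM at 3 weeks and 65459 CPM at 2 months. At 2 months this was below the 85964 CPM of the fibroblast markers. Cell by cell the sums differed less, with a median of 8.93%, 8.83% and 7.41% of a mast cell's UMIs from these genes. One cell held 4.23%, 12.2% and 33.3% of the protease UMIs. The 4 proteases given here are genes of the rule, so their height was in part chosen. Because 1 UMI is counted per captured 3′ end, levels of different genes are set side by side here without a correction for length. Cma1, the chymase, stood at 34245 CPM in neonatal mast cells (33845 to 34648), 24230.0 CPM at 3 weeks and 15544 CPM at 2 months. Mcpt4, another chymase, stood at 28034, 34428 and 25771 CPM. Tpsb2, a tryptase, stood at 22123, 12283 and 13763 CPM, and Cpa3, carboxypeptidase A3, at 10524, 14254 and 7683 CPM. In order of level, Cma1 led in the neonatal library and Mcpt4 in the other two.

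The same order was seen cell by cell. Cma1 was the most abundant of the 4 proteases in 74 of 112 neonatal cells, in 19 of 72 at 3 weeks and in 3 of 17 at 2 months. Mcpt4 led in 33, 47 and 14 cells. The median share of Mcpt4 among the 4 was 27.6% (0 to 61.1%), 41.3% (0 to 75.8%) and 42.9% (19.2 to 67.2%), and that of Cma1 was 41.3%, 28.5% and 28.1%. The ranges of both shares overlapped widely between the libraries. Mcpt4 had a UMI in 103 of 112 neonatal cells, 71 of 72 at 3 weeks and 17 of 17 at 2 months. Depth was matched by thinning each cell to 1500 UMIs, which left 105, 17 and 8 mast cells and dropped 7, 55 and 9, or, in a setting chosen after the data were seen, to 500 UMIs, which kept all of them. At 1500 UMIs Mcpt4 was found in 87.6%, 94.1% and 100% of mast cells. At 500 UMIs it was found in 86.6% of neonatal cells (78.9 to 92.3%), 97.2% at 3 weeks and 100% at 2 months. Beside these stood 0.295%, 0 and 0 of keratinocytes, chosen by their own markers, with median depths of 18111, 13003 and 11392 UMIs. Mcpt4 is a gene of the rule and the keratinocytes were taken from outside it. The gap between the 2 kinds of cell was therefore in part fixed, and nothing is read from it.

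**Figure D3:**
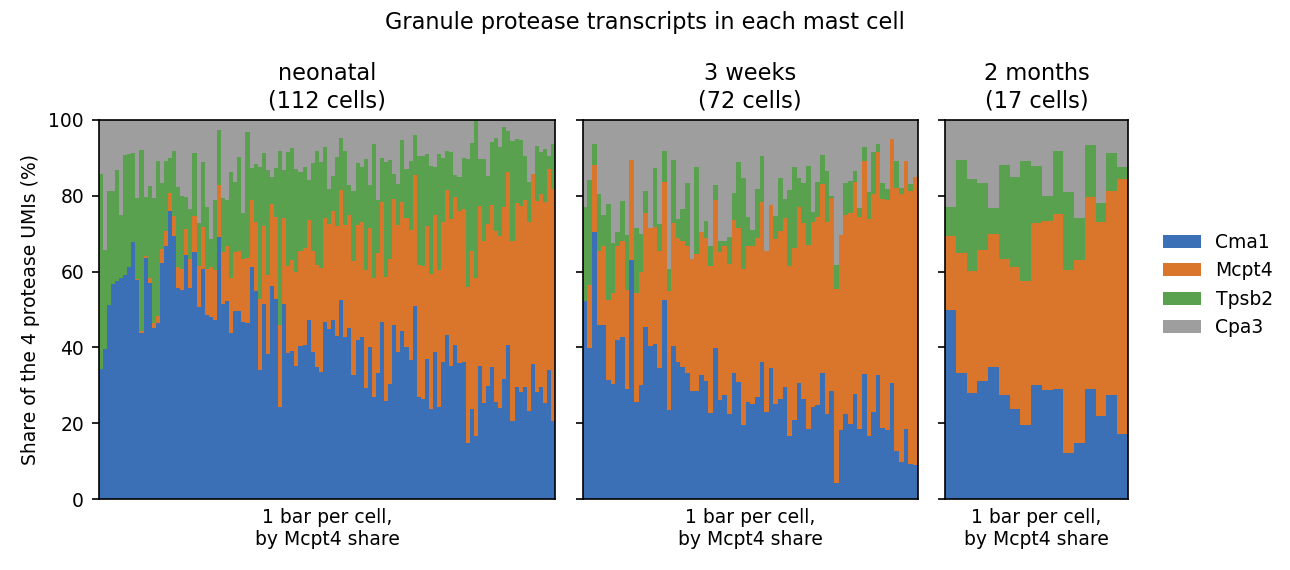
Each bar is 1 mast cell, split into the percent of its Cma1, Mcpt4, Tpsb2 and Cpa3 UMIs and ordered within a library by its Mcpt4 share. Neonatal cells run from no Mcpt4 up to 61.1%, with Cma1 the largest part in 74 of 112; Mcpt4 is the largest part in 47 of 72 cells at 3 weeks and 14 of 17 at 2 months.

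Cma1 and Mcpt4 lie in a cluster of protease genes on chromosome 14 (mm10, chr14:55941451-56262260), in which 9 genes were listed. Of the others, Mcpt1 and Mcpt9, chymases, had 0 UMIs in every mast cell, and Mcpt2 had 10 neonatal UMIs and 0 later. Ctsg, cathepsin G, had 109, 11 and 1 UMIs, and the neonatal ones came from 20 cells. Cma2 had 61, 4 and 1 UMIs, and Gzmb, a granzyme, 4, 0 and 0. Of 451 stretches of 50 bases at the end of Mcpt4, 58 (12.9%) also occur at the end of Cma2, as do 51.2% of those at the end of Mcpt9, so the counts of Cma2 and the 0 of Mcpt9 are uncertain, while Mcpt4 and Cma1 shared 0. The tryptases lie on chromosome 17: beside Tpsb2, Tpsab1 had 548, 66 and 7 UMIs and Tpsg1 had 160, 48 and 9. Tpsab1 was unevenly spread at 3 weeks, in 6 of 72 cells, with 57.6% of its UMIs in 1 cell.

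Beyond the rule genes, mast cells were set against all other kept cells. This contrast was used to choose the cells, so nothing is read from it: 17.6% of 9210 measured genes were 2-fold or more higher in neonatal mast cells, 28.6% of 3911 at 3 weeks and 31.4% of 1302 at 2 months. The 20 genes outside the rule with the highest ratio in all libraries were Mrgprb1, Tpsab1, Cd200r3, Tpsg1, Tph1, Cyp11a1, Kcne3, Hdc, Il4, Atp8b5, Slc18a2, Gata2, Mrgprb2, Il1rl1, Lat2, Sla, Serpinb1a, Csf2rb, Tal1 and Slc45a3. For 15 of them promoters were in the RefSeq table, with 24 windows, of which 8 (33.3%) held the GATA motif.

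Hdc, the enzyme that makes histamine, was the most abundant amine gene, at 5481 CPM in the neonatal library, 4553 CPM at 3 weeks and 3078 CPM at 2 months. It was found in 109 of 112, 69 of 72 and 17 of 17 cells. Tph1, which starts serotonin synthesis, stood at 75.7, 160.4 and 229 CPM, and Slc6a4, the serotonin transporter, at 680.1, 611 and 254 CPM. Slc18a2, which loads amines into vesicles, stood at 288, 359 and 331 CPM. Srgn, the core protein that carries heparin, stood at 6202, 4988 and 3307 CPM. Cyp11a1, the enzyme that begins steroid synthesis, stood at 1459, 1260.4 and 559.7 CPM, against at most 0.783 CPM in other cells.

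Receptors of both activation routes were present. Fcer1g, the signalling chain of Fc receptors, stood at 2068, 2834 and 1984 CPM, and Ms4a2, the beta chain of the IgE receptor, at 211, 474 and 204 CPM. Fcer1a, the chain that binds IgE, was sparse, with 18, 5 and 10 UMIs in 8, 3 and 3 cells. Mrgprb2, the receptor for basic peptides on connective tissue mast cells, stood at 532, 519 and 356 CPM and Mrgprb1, of the same family, at 791, 1260.4 and 1196 CPM. Kit stood at 542, 901 and 738 CPM. Of the lineage factors, Gata2 stood at 1155, 1077 and 687 CPM, found in 101, 51 and 15 cells.

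Between the neonatal and the 3 week library, 3599 genes were measured in the mast cells, meaning that the mean of the 2 levels was worth 5 or more UMIs in the smaller profile. Of these, 395 (11.0%) were 2-fold or more higher at 3 weeks and 356 (9.89%) were 2-fold or more lower, with a median log2 ratio of 0.03. With TMM scaling in place of total UMIs the counts were 303 higher and 537 lower. Depth and the level of other cell types' transcripts also differed between these libraries and cannot be told apart from age.

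The lower genes were led by signalling products. Of 14 measured cytokines and chemokines, 7 were 2-fold or more lower at 3 weeks and 3 were higher, with a median log2 ratio of -0.62. That median rested on a few genes: it was 0.01 without called doublets (5 of 12 lower, 3 higher), 0.05 without the deepest cell of each library (4 of 12 lower, 3 higher) and 0.07 by the mean of CPM per cell (6 of 13 lower, 5 higher), and it was -0.73 without cells with 5% or more of other types' markers (6 of 14 lower, 3 higher). In all other cells 5 of the same 14 were lower and 2 higher, with a median of 0.00. Il13, a type 2 cytokine, stood at 982 CPM in neonatal mast cells (915 to 1052) from 67 of 112 cells. It stood at 84.0 CPM at 3 weeks (41.9 to 150.3) from 5 of 72 cells, and at 50.9 CPM at 2 months from 2 of 17. The neonatal level was 11.7-fold that at 3 weeks, a log2 ratio of -3.55 (-4.55 to -2.70). In cells thinned to 500 UMIs, Il13 was found in 25.0% of neonatal cells (17.3 to 34.1%), in 1.39% at 3 weeks and in 5.88% at 2 months, against 0 of keratinocytes in every library. At 1500 UMIs the shares were 40.0%, 11.8% and 12.5%, from 42, 2 and 1 cells. Csf2, which encodes GM-CSF, had 215 UMIs in 37 neonatal cells (263 CPM, 229 to 300), 2 UMIs at 3 weeks (15.3 CPM, 1.85 to 55.2) and 0 at 2 months. Il6 stood at 129 and 38.2 CPM, and Tgfb1, which encodes TGF-beta 1, at 357 and 168 CPM.

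Il4 did not share this pattern. It stood at 338 CPM in the neonatal library (299.5 to 380.5), 451 CPM at 3 weeks (343 to 581) and 305 CPM at 2 months, and was found in 77, 36 and 10 cells. The 3 cytokines that were higher at 3 weeks were Tnf, at 143 and 412 CPM, Osm, at 50.1 and 153 CPM, and Ccl2, at 288 and 848 CPM. Of the 7 lower ones, 3 were chemokines with most of their UMIs in single cells: 98.8% of neonatal Ccl4 UMIs, 90 of 96 Ccl3 UMIs and 70.4% of Cxcl2 UMIs lay in 1 cell. Without that cell Ccl4 and Ccl3 had log2 ratios of 1.65 each, the opposite direction, and Cxcl2 one of -3.41. Il13, Csf2 and Cxcl2 were 2-fold or more lower under every alternative choice of cells and scaling that was tried, and Il6 under each of them but the one limited to cells under 3000 UMIs, where it was not measured. Tgfb1 was not 2-fold lower without cells with 5% or more of other types' markers, without the deepest cells or against the neonatal cells with a Y-linked transcript and no Xist.

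Precursors of neuropeptides were also lower at 3 weeks. Calca, which encodes the precursor of CGRP, had 738 UMIs in 66 of 112 neonatal cells, 7 UMIs in 5 of 72 at 3 weeks and 0 at 2 months. Its level was 901 CPM (837 to 968) in the neonatal library and 53.5 CPM (21.5 to 110.2) at 3 weeks, 16.9-fold apart, against 1.90 and 0.440 CPM in other cells. Penk, which encodes proenkephalin, had 719 UMIs in 41 neonatal cells, 5 in 4 cells at 3 weeks and 0 at 2 months, a level 23.0-fold higher in the neonatal cells than at 3 weeks. Penk was also found in other cells, at 247, 85.2 and 167 CPM. Tac1, the precursor of substance P, had 214 UMIs in 26 neonatal cells and 0 at both later ages, at least 11.4-fold lower at 3 weeks against a floor of 3 UMIs. Of the 112 neonatal cells 86 held at least 1 of the 3 precursors and 41 held at least 2, whereas 9 of 72 cells held 1 at 3 weeks and none held 2. At 2 months 0 of 17 cells held any, with an exact upper limit of 19.5%. That limit is for cells with a UMI at a median depth of 1346 UMIs. It does not bound the share of cells that express the genes. Thinned to 500 UMIs, Calca was found in 25.0% of neonatal cells, 0 of 72 and 0 of 17, and in 0, 0.0590% and 0 of keratinocytes. Penk was found in 16.1%, 1.39% and 0, against 2.65%, 0.531% and 0.616% of keratinocytes. At 1500 UMIs Calca was found in 38.1%, 17.6% and 0 of mast cells and Penk in 26.7%, 5.88% and 0, where 3 cells and 1 cell made up the 3 week shares.

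The beta chains of the IL-3 receptor family were lower at 3 weeks too. Of 10 measured genes of KIT and the cytokine receptors, 4 were 2-fold or more lower (Il1rl1, Csf2rb, Csf2rb2 and Il3ra) and 1 was higher (Il2rg), with a median log2 ratio of -0.26. With a mitochondrial limit of 5% the lower ones were Csf2rb and Csf2rb2, 2 of 9, with a median of 0.02, and without cells with 5% or more of other types' markers they were Il1rl1, Csf2rb and Csf2rb2, 3 of 10, with a median of 0.03. Without called doublets the same 4 were lower, with a median of -0.42. Csf2rb2, the beta chain of the IL-3 receptor, stood at 911 CPM in neonatal cells (847 to 979), 107 CPM at 3 weeks (58.5 to 179) and 50.9 CPM at 2 months, in 82, 10 and 2 cells. Csf2rb, the beta chain shared with the GM-CSF and IL-5 receptors, stood at 820.5, 298 and 229 CPM. The 2 beta chain genes are close copies, so the split of reads between them is uncertain. Il3ra, the IL-3 binding chain, stood at 109.9, 45.8 and 50.9 CPM, from 90, 6 and 2 UMIs, and was not counted as lower under 5 of the alternative choices: the limit of 5%, the mean of CPM per cell, cells under 3000 UMIs, cells without other types' markers and the neonatal cells with a Y-linked transcript. Kit itself had a log2 ratio of 0.73 (0.43 to 1.03), higher at 3 weeks.

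Of the other genes that led the list of lower ones, Fdx1, the electron donor of mitochondrial steroid enzymes, stood at 2759 CPM in neonatal cells (2647 to 2875) from 105 cells, 481 CPM at 3 weeks and 178 CPM at 2 months. In other cells Fdx1 was level, at 60.5, 61.3 and 60.5 CPM. Slc38a1, an amino acid transporter, stood at 293, 30.6 and 25.4 CPM, and Pla2g7, which breaks down platelet-activating factor, at 264, 22.9 and 76.3 CPM.

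**Figure D4:**
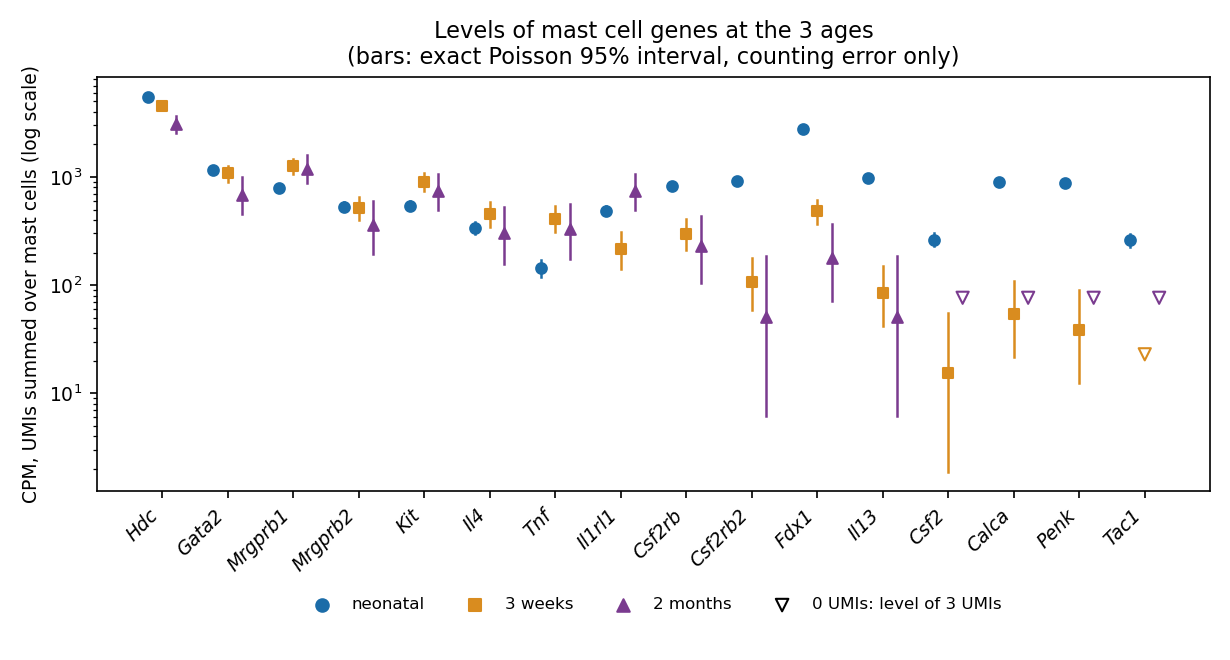
Levels of 16 genes in CPM of UMIs summed over the mast cells of each library, on a log axis; bars are exact Poisson 95% intervals, some shorter than the symbol, and open triangles mark 0 UMIs at the level of 3 UMIs. Hdc, Gata2 and Il4 stay within a narrow band, whereas Il13 is at 982 CPM in the neonatal library and 84.0 CPM at 3 weeks, and Calca at 901 and 53.5 CPM.

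Transcripts that mark sex differed between the libraries along with age. Xist, the RNA that silences an X chromosome in females, had 449 UMIs in 76 of 112 neonatal mast cells and 0 at both later ages. Of the neonatal cells 69 had Xist and no Y-linked transcript, 16 had a Y-linked transcript and no Xist, and 7 had both, whereas 37 of 72 cells at 3 weeks and 7 of 17 at 2 months had a Y-linked transcript. In the 16 neonatal cells with a Y-linked transcript and no Xist, Il13 stood at 1034 CPM in 11 cells, Calca at 1651 CPM in 10, Penk at 379 CPM in 7, Tac1 at 774 CPM in 6, Csf2 at 528 CPM in 7, Csf2rb2 at 588 CPM in 11 and Fdx1 at 3035 CPM in 14. Each of these levels was above that of the 3 week cells. Dlk1 and H19, imprinted genes of fetal tissue, were also lower at 3 weeks, with 592 and 2 UMIs and with 225 and 0 UMIs, and both were lower in other cells, by log2 ratios of -5.22 and -3.16.

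Immediate early genes, which respond within minutes to a stimulus, and heat shock genes stood higher at 3 weeks. Of 19 measured, 9 were 2-fold or more higher (Fos, Fosb, Jun, Egr1, Ier2, Dusp1, Zfp36, Hspa1b and Dnajb1) and 1 was lower (Ier3), with a median log2 ratio of 0.83. Of all 3599 genes measured in the mast cells 11.0% were higher and 9.89% lower. Fos stood at 844 CPM in neonatal cells (782 to 909), 5523 CPM at 3 weeks (5128 to 5940.5) and 6691 CPM at 2 months. Jun stood at 1365, 7761 and 7454 CPM, and Egr1 at 449, 2635 and 3307 CPM. In cells thinned to 500 UMIs, Fos was found in 25.9%, 75.0% and 82.4% of mast cells (in 74, 65 and 16 cells before thinning) and in 37.5%, 60.5% and 71.2% of keratinocytes. At 1500 UMIs the shares were 33.3%, 70.6% and 100% of mast cells and 61.4%, 82.7% and 88.8% of keratinocytes. Ier3 stood at 3167, 787 and 509 CPM. In all other cells 4 of the 19 were 2-fold or more higher and 1 lower, and the list's median there was 0.06. Of the 19 genes 15 had a higher ratio in mast cells than in other cells. The count of higher genes was 13 without called doublets, 11 without cells with 5% or more of other types' markers, 14 of 20 by the mean of CPM per cell and 6 of 20 when the neonatal cells were limited to the 16 with a Y-linked transcript and no Xist.

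**Figure D5:**
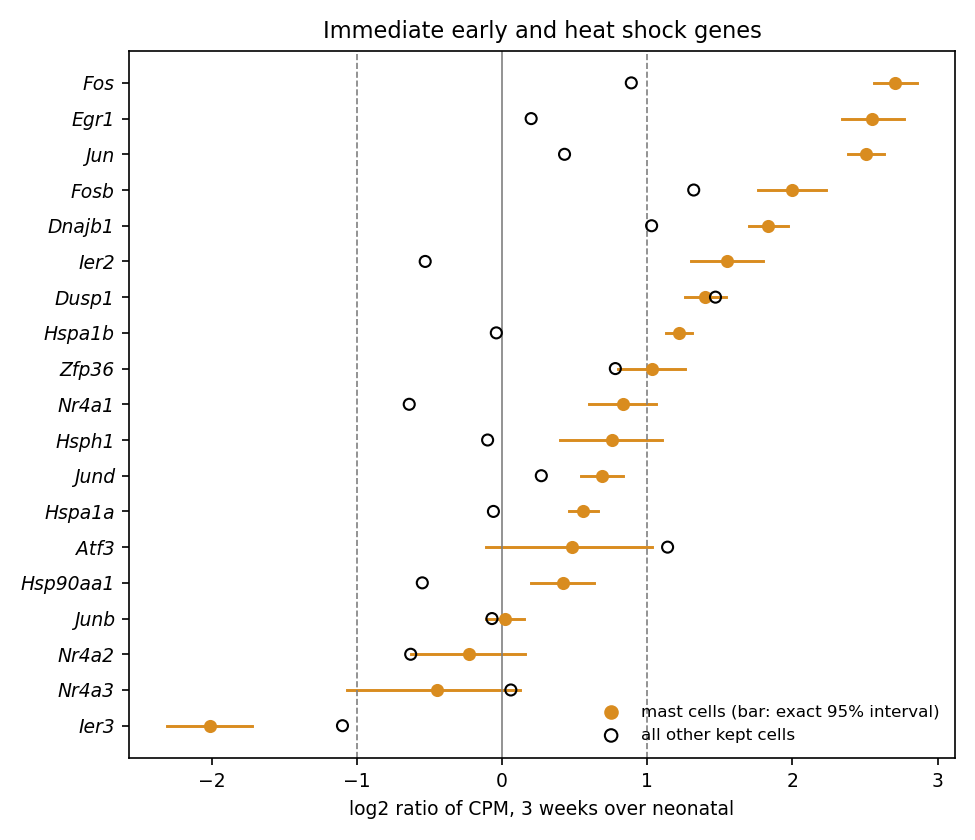
The x axis is the log2 ratio of CPM at 3 weeks over neonatal for the 19 measured genes of the list; filled points are mast cells with the exact 95% interval and open points are all other kept cells. Fos, Egr1 and Jun stand at 2.71, 2.55 and 2.51 in mast cells and at 0.89, 0.20 and 0.43 in other cells, and Ier3 at -2.01 in mast cells.

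Several genes that led the list of higher ones at 3 weeks came from 1 cell each. Hbb-bs, a haemoglobin chain, had 1674 UMIs at 3 weeks and 118 in the neonatal cells, and 92.1% of the 1674 lay in 1 cell, as did 96.0% of Hbb-bt, 87.7% of Hba-a1 and 89.6% of Hba-a2 UMIs. All 21 UMIs of G0s2 lay in 1 cell, as did 83.9% of 31 Gdf15 UMIs. Colec11, a collectin, was more evenly spread, with 2 UMIs in neonatal cells and 10 UMIs in 9 cells at 3 weeks. Among genes not 2-fold over other cells, Krt14 of basal keratinocytes had 79.2% of its 48 UMIs in 1 cell, Ly6c1 81.5% of 27, Coch 77.3% of 22 and Adm 95.2% of 21. Cxcl1 was lower at 3 weeks, with 246 and 3 UMIs, of which 59.8% of the neonatal ones lay in 1 cell.

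Between 3 weeks and 2 months 1106 genes were measured in the mast cells. Of these 117 (10.6%) were 2-fold or more higher at 2 months and 103 (9.31%) lower, with a median log2 ratio of -0.04, and with TMM scaling the counts were 83 and 236. This comparison rested on 17 cells, and without the cells with 5% or more of their UMIs from other types' markers 62 genes were higher and 46 lower. None of 5 measured cytokines was 2-fold apart, although with TMM scaling 4 of 7 were lower (Osm, Csf1, Ccl7 and Tgfb1) and by the mean of CPM per cell 3 of 6 were. Of the 19 immediate early and heat shock genes 2 were 2-fold apart, Atf3, higher, and Nr4a3, lower.

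Il1rl1, which encodes the IL-33 receptor ST2, was higher at 2 months than at 3 weeks. It stood at 487 CPM in neonatal cells (441 to 537), 214 CPM at 3 weeks (142 to 309) and 738 CPM at 2 months (494 to 1059.6), from 84, 11 and 12 cells. The log2 ratio of the 2 later ages was 1.79 (0.99 to 2.59). That of the 2 earlier ages, -1.19, was -0.13 with a mitochondrial limit of 5%. Il1rl1 was the only one of 17 genes of the IL-1 family and its receptors that was measured in the comparisons of ages. Within the libraries, 9 of the 17 had 5 or more UMIs in the neonatal mast cells, 2 at 3 weeks and 2 at 2 months. Il1a, Il1b and Il18 had 0, 0 and 1 UMIs in neonatal cells and 0 later, Il33 had 1 UMI at 2 months, and Il1r1, the IL-1 receptor, had 15, 1 and 1.

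Other genes that led the comparison were lower at 2 months and had few UMIs there. Clec12b, an inhibitory lectin receptor, stood at 175 CPM in neonatal cells (147 to 206), 382 CPM at 3 weeks (283 to 504) and 25.4 CPM at 2 months (0.644 to 142), the last from 1 UMI. Gnai1, a G protein subunit, stood at 549, 359 and 25.4 CPM, also from 1 UMI, and Cd55, which inhibits complement, at 267, 359 and 76.3 CPM. Cyp11a1 had a log2 ratio of -1.17 (-1.88 to -0.52). Slco2b1, an organic anion transporter, had 46 and 2 UMIs and Ostf1 42 and 2, and the haemoglobin genes had 0 or 1 UMI at 2 months. Ms4a2, Slc6a4 and Tpsab1 had log2 ratios of -1.22, -1.26 and -1.50.

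Of the higher genes at 2 months, Vat1 stood at 68.7 and 407 CPM, Kdm7a, a histone demethylase, at 53.5 and 254 CPM, Rel, an NF-kB subunit, at 153 and 432 CPM, Azin1 at 84.0 and 305 CPM and Hbp1 at 61.1 and 229 CPM, each from 9 to 17 UMIs at 2 months. Fcer1a, a gene of the rule, stood at 38.2 and 254 CPM, with 70.0% of its 10 UMIs in 1 cell. All UMIs of Krt1, Aqp3 and Krtdap, 91.7% of B930036N10Rik and 95.7% of Krt10 lay in 1 cell. Nupr1, Timp2 and Pcolce2, genes that stood at 1216, 1815 and 342 CPM in other cells, stood at 2391, 1857 and 458 CPM in the mast cells of this library, from 6, 6 and 4 cells. The summed fibroblast markers were also higher in that library, at 85964 CPM against 29608 CPM, and their part in these values was not tested. Postn, Igfbp3 and Krt14 were lower at 2 months, and 91.9%, 96.6% and 79.2% of their UMIs at 3 weeks lay in 1 cell. Gapdh, a glycolytic enzyme, stood at 1940.2 and 865 CPM.

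The remaining lists held few measured genes. In the comparison of 3 weeks with neonatal, 11.0% of all 3599 measured genes were higher and 9.89% lower. Single genes of a list are not read as a result about it. Of 13 granule proteases 1 was higher (Ctsl) and 1 lower (Cma2). Without cells with other types' markers, Tpsg1 was higher in place of Ctsl and no protease was lower. By the mean of CPM per cell Tpsb2 and Tpsab1 were lower and none was higher. Of 13 genes of IgE signalling 1 was higher (Ms4a2) and 1 lower (Rgs13). Of 11 lineage factors 1 was higher (Tal1), and of 10 exocytosis genes 1 (Stx4a). Of 6 amine genes 1 was higher (Tph1), though not with TMM scaling or against the neonatal cells with a Y-linked transcript. Of 5 G protein-coupled receptors 0 were apart. Of 11 genes of the NF-kB response 3 were higher and 0 lower: Tnfaip3, an inhibitor of NF-kB signalling, at 369, 1337 and 1094 CPM, Nfkbid, another regulator, at 54.9, 222 and 153 CPM, and Icam1, an adhesion molecule, at 86.7, 183 and 153 CPM. Of 8 genes of MHC class I and interferon, Irf1 and Bst2 were higher, at 52.5 and 199 CPM and at 37.8 and 76.4 CPM. The adhesion genes had 4 of 6 higher (Cd34, Cd9, Cadm1 and Itgb7), of which Cd34 and Cd9 stood lower in mast cells than in other cells in every library. Hs3st1, a heparan sulfotransferase, stood at 998, 466 and 229 CPM. Hpgds, which makes prostaglandin D2, stood at 194, 206 and 229 CPM. Of 12 mitotic genes, 3 or more were found in 8 of 112 neonatal cells (7.14%, 3.13 to 13.6%) and in none at the later ages, where 0 of 72 and 0 of 17 cells have exact upper limits of 4.99% and 19.5% and the shallow depth lowers the chance of finding 3 genes in a cell.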

How the data were processed

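The authors deposited 1 matrix of UMI counts per library, with no normalization; per the submitters' processing notes Cell Ranger 3.0.2 and Seurat 2.0 were used with the build mm10, and how barcodes were selected is not given in the sources used here. Counts were read as deposited, for 27998 genes, with Python 3.11.15, numpy 2.4.6, scipy 1.17.1 and pandas 2.3.3. UMIs were summed over the mast cells of a library and scaled to CPM of the total. Doublets were called with Scrublet in scanpy 1.11.5 and kept, and leaving them out was an alternative. The threshold was Scrublet's own at 3 weeks and 2 months, and the highest scores at an expected rate of 0.06 in the neonatal library. TMM factors from edgeR 4.0.16 in R 4.3.3 were used as an alternative scaling only. A gene was measured where the mean of 2 CPMs was worth 5 or more UMIs in the smaller profile. For a ratio, a count under 3 UMIs was set to a floor of 3 UMIs.

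The text names the 7 rule genes, the 20 genes with the highest lowest-of-3 ratio to other cells, and per age comparison 10 genes in each direction that were 2-fold over other cells, ranked by the interval bound nearest to no difference, with 5 others in each direction, plus examples from the lists among members 2-fold apart. The members and lists were chosen with earlier results of these data known. Keratinocytes for comparison had 3 or more of their markers and 10 or more UMIs of them. The ratios and intervals were tried on simulated Poisson counts without variation between cells. The intervals assume the same model, so this cannot show how they hold for genes with most UMIs in single cells. Some genes that this choice allows are not reported here.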

Additional observations from a re-analysis of the deposited data

How the results depend on the processing

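With 1 library per age, variation between animals was not measured, and depth limits the 2 month library most, where 3 UMIs equal 76.3 CPM. Over the alternative choices of cells and scaling, 2279 log2 ratios of 201 gene comparisons were computed: 1934 stayed within their counting interval, 318 moved outside it in the same direction and 27 had the opposite sign. The settings that left out single cells, deep cells, cells with other types' markers or all filters, that kept the neonatal cells with a Y-linked UMI or that thinned to 500 UMIs were chosen after seeing the data. No paired analysis was possible because each age has 1 library and no test was made.

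The mast cell share was 0.706% (neonatal) and 0.208% (3 weeks) with a mitochondrial limit of 5%, and 1.73% (neonatal) with no filter. From neonatal to 3 weeks, the genes 2-fold higher numbered 186 with 10 expected UMIs, 2067 with 1 expected UMI, 133 at 3-fold and 263 in cells under 3000 UMIs; those lower numbered 215 with the limit of 5%, 537 with TMM, 156 with 10 expected UMIs and 85 at 3-fold. From 3 weeks to 2 months, those higher numbered 180 by the mean of CPM per cell, 42 with 10 expected UMIs, 1589 with 1, 60 at 3-fold, 40 in cells under 3000 UMIs and 62 without cells with 5% or more of other types' markers. Those lower numbered 236 with TMM, 30 with 10 expected UMIs, 175 with 1, 29 at 3-fold, 27 in cells under 3000 UMIs, 46 without the cells with other types' markers and 66 without the deepest cell.

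Log2 ratios of 3 weeks over neonatal with the opposite sign were as follows, and the cause was not tested. Without doublets Ccl3 was at 1.34 and Ccl4 at 2.12. By the mean of CPM per cell Cd34 was at -0.10. In cells under 3000 UMIs Ccl4 was at 1.09. With the limit of 5% Tal1 was at -0.16 and Ccl4 and Krt1 at 1.64 each, and with the 16 neonatal cells that had a Y-linked UMI and no Xist, Ccl4 and Krt1 were at 1.04 each. Without cells with other types' markers Postn was at -1.64, Igfbp3 at -1.01 and Hba-a2 at -0.72. Without the deepest cell Postn was at -1.37, Igfbp3 at -1.65, Ccl3 at 1.78 and Ccl4 at 2.37. Without the cell holding most UMIs of the gene Postn was at -0.32, Igfbp3 at -1.35 and Ccl3 and Ccl4 at 1.65 each.

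For 2 months over 3 weeks, in cells under 3000 UMIs Postn was at 0.67, Hs3st1 at 0.05, Hbb-bt at 1.16 and Krt14 at 0.90. Without cells with other types' markers Hba-a2 was at 1.56. Without the deepest cell Postn was at 0.12, and without the cell holding most UMIs of the gene Hbb-bt was at 0.51.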
